A study of Mus musculus with 34 samples.

Results

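Gbp2b is 1 of the 9851 genes listed in the 3 expression tables of this series, and each table listed it: the first with 9022 genes, the rescue table with 8816 and the neutrophil table with 8793. It was chosen because its level in macrophages that lack the receptor for IL-10 was above that of antibiotic-treated littermates when both had been given antibiotics. The libraries of the rescue table that served this choice are therefore described below without a test of Gbp2b, and tests of Gbp2b come from the first and neutrophil tables alone.

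RNA was measured in 34 libraries of 10 groups of macrophages sorted from the colonic lamina propria of C57BL/6 mice as CD45+ CD11b+ CD11c-intermediate CD64+ cells without Ly6c or CD103. The first table held 3 CXhet and 3 IL10R libraries, from untreated mice aged 6-7 weeks. In the rescue table, 2 CX, 5 IL10R and 4 IL10R_P19 libraries came from untreated mice of that age, and 4 IL10R_abx and 3 littermate_abx libraries from mice of that age that drank water with antibiotics. The neutrophil table held 4 wt, 3 ko_igg and 3 ko_ly6g libraries from bone marrow chimeras, 4 weeks after the transfer. IL10R was read from the series title as deficiency of the IL-10 receptor alpha chain, which Il10ra encodes, and P19 as the p19 subunit of the cytokine IL-23. The titles ko_igg and ko_ly6g were read as that deficiency with a control IgG or an anti-Ly6g antibody. The wt titles name no antibody, so ko_igg and wt differ in titled antibody as well as in genotype. The names CX, CXhet and 5C5 are not explained in the labels, the sources used here give neither the genotype of the littermates nor the driver of the deletion, and no group holds untreated littermates. For the neutrophil libraries a treatment label assigns anti-Ly6g antibody to all 10, which the titles contradict; groups follow the titles. Nothing in the labels ties libraries to separate animals, so p-values here compare differences with the scatter of libraries, which may be technical.

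Guanylate-binding proteins are large GTPases whose genes are switched on by interferons, above all interferon gamma. They gather on the vacuoles of intracellular pathogens and on bacteria in the cytosol, open them, and help to activate inflammasomes. Gbp2b, long called Gbp1 in the mouse, is one of the family members in the gene cluster on chromosome 3 and is known for an inducibility that varies between inbred mouse strains. In the gut, macrophages meet products of the microbiota all the time, and IL-10 signalling restrains their response to them.

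The promoters of Gbp2b and of Gbp2, the gene that follows it in the cluster, are shown because the levels of both genes are set side by side below. These are the 250 bases before the annotated start, 5′ to 3′ on the plus strand, from RefSeq on build GRCm38.p6. They lie at chr3:142594597-142594846 for Gbp2b and chr3:142620413-142620662 for Gbp2. Capitals mark matches to the core of the interferon-stimulated response element, GAAANNGAAA, searched on both strands.
Gbp2b: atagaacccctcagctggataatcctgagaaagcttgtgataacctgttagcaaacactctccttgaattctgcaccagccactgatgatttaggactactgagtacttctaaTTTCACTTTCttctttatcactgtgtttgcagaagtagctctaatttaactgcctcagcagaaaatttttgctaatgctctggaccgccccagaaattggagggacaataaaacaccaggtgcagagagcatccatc
Gbp2: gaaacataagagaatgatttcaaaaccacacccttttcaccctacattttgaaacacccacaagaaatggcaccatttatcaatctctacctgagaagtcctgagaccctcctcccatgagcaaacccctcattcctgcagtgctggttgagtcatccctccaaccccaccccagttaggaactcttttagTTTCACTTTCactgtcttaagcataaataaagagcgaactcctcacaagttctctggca
Both promoters hold the same match, TTTCACTTTC, which is the core read on the other strand. It lies 137 to 128 bases before the start in Gbp2b and 59 to 50 bases before the start in Gbp2. Such a match occurs in 978 of 32851 promoters of that length, or 2.98%, and is also present in those of Gbp3, Gbp5 and Gbp7. A core of the gamma-activated site, TTCNNNGAA, which reads alike on both strands and occurs in 2306 promoters, or 7.02%, was found in Gbp5 and Gbp7 and has no match within these windows of Gbp2b and Gbp2. The motif matches are descriptions of these letters.

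The authors deposited the reads of each gene scaled by a factor for the library, and these values are called normalised reads here. They are not divided by transcript length, so a level is compared between groups and not between genes. Summed over the listed genes only, libraries held 747046 to 2775974 reads in the first and rescue tables, and 1028567 to 4525047 in the 8 neutrophil libraries whose reads could be recovered. Il10ra, the targeted gene, stood at 371 to 689 normalised reads in CXhet but at 9.26, 361 and 65.9 in the 3 IL10R libraries of the first table. The library labelled IL10R 2 there thus lies beside the controls, and the change of Gbp2b and the counts of called relatives and list members in the first table are given with and without it; its other values, correlations included, are with it. In the rescue table Il10ra was at 1.70 to 31.2 in the IL10R, IL10R_P19 and IL10R_abx libraries and at 138 to 284 in CX and littermate_abx. In the neutrophil table it was at 32.2 to 111 in the ko groups and 247 to 827 in wt. Of 9 macrophage markers 8 were listed in each table (Mertk was not), among them Cx3cr1, Csf1r and the C1q genes, and their summed share of the values was 0.466% to 2.92% in every library. Of 9 T and NK cell markers 2 were listed in each table, none of them a CD3 chain.

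In mice on antibiotics, macrophages labelled as lacking the IL-10 receptor alpha chain held more Gbp2b RNA than those of littermates in every library. The 4 IL10R_abx libraries held 305, 387, 187 and 209 normalised reads, from 140, 206, 110 and 218 reads. The 3 littermate_abx libraries held 62.0, 70.4 and 55.8, from 60, 52 and 53 reads. The groups do not overlap, and 4.82% of all tested genes were likewise higher without overlap. The lowest IL10R_abx library had a 95% counting interval of 153 to 225, and the highest littermate library one of 52.6 to 92.4. These exact Poisson intervals cover counting error only. Means were 272 ± 92.4 (SD, n = 4) and 62.7 ± 7.33 (SD, n = 3), a 4.34-fold difference. The log2 difference in the fit of the whole table was 2.04 (SE 0.24). Of the 6612 genes tested across the table, limma called 2, or 0.0302%, at an adjusted p under 0.05, and Il10ra was lower by -4.86 (SE 0.57). Gbp2b was chosen from the calls of this contrast, so its own place among them is a matter of the choice and nothing is read from it. The number of genes called depends on the libraries: it was 385 without IL10R_abx_497, 24 without IL10R_abx_495 and 4 without littermate_abx_491, while 997 genes had an unadjusted p under 0.05 with all libraries. The Gbp2b difference stayed between 1.85 and 2.20 when each library of either group was left out.

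**Figure D1:**
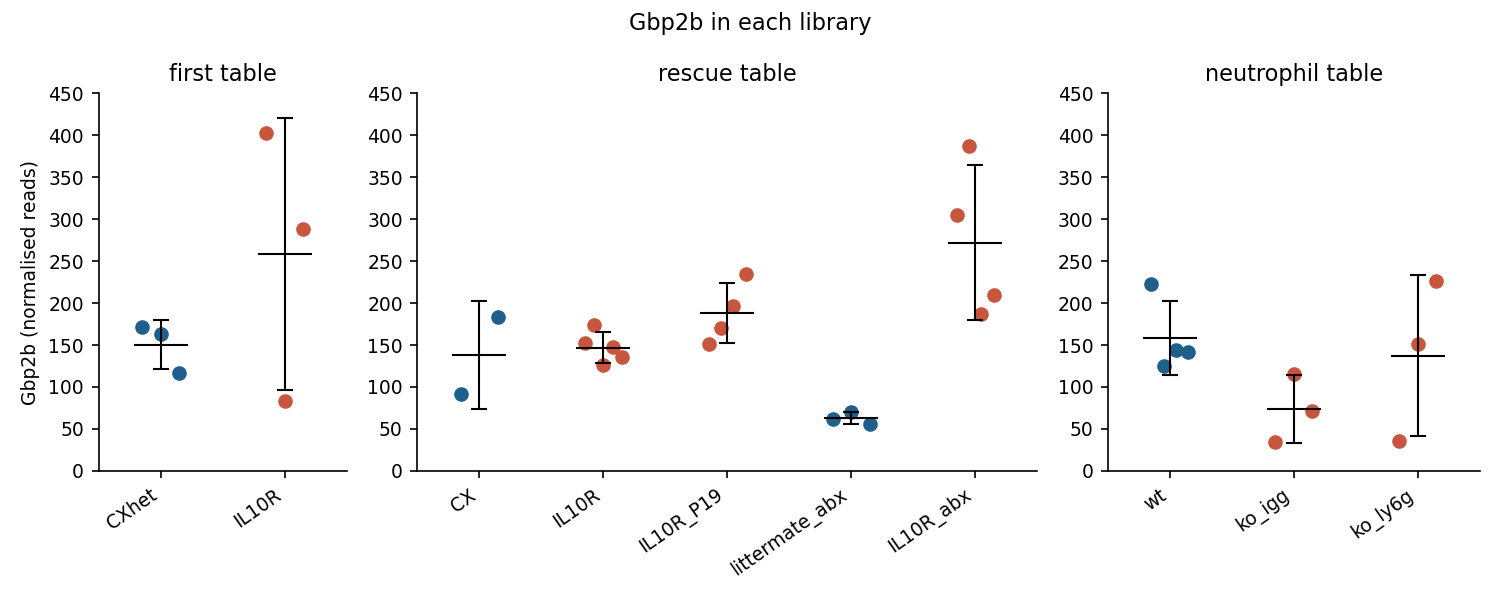
Gbp2b in normalised reads (vertical axis, linear from 0) in each library of the 3 tables; each point is 1 library, bars give the group mean and SD, blue marks control groups and red the groups titled IL10R or ko. The IL10R_abx libraries, at 187 to 387, sit above the littermate_abx libraries, at 55.8 to 70.4, and tables were normalised separately so that heights are compared within a panel.

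Set in order of their means, the 5 groups of the rescue table ran from littermate_abx through CX, IL10R and IL10R_P19 to IL10R_abx. The CX libraries held 92.2 and 184 normalised reads, with a mean of 138 ± 64.9 (SD, n = 2). The 5 IL10R libraries held 126 at the lowest, 147 in the middle and 174 at the highest, with a mean of 147 ± 18.3 (SD, n = 5). The 4 IL10R_P19 libraries held 151, 170, 196 and 235, with a mean of 188 ± 36.1 (SD, n = 4). Neighbours in this order overlapped, except that all 3 littermate_abx libraries lay below both CX libraries. The plot of Gbp2b by library shows that the IL10R libraries were the tightest of the untreated groups and the CX libraries the widest apart.

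Between untreated groups the Gbp2b libraries overlapped in each comparison, and the log2 differences ran from 0.16 to 0.51. IL10R exceeded CX by 0.16 (SE 0.27) on the log2 scale, and 9.91% of genes were called in that comparison. The value was -0.33 without CX 1 and 0.66 without CX 3, so its direction rests on CX 1. IL10R_P19 exceeded IL10R by 0.34 (SE 0.21), where 2.43% of genes were called, and exceeded CX by 0.51 (SE 0.27). That last value was 0.01 without CX 1 and 1.00 without CX 3.

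Against untreated groups, the 2 antibiotic groups stood on opposite sides. IL10R_abx was above IL10R in every library, by 0.83 (SE 0.21) on the log2 scale or 1.85-fold, in a comparison where 57.8% of all genes were called and 22.7% had libraries that did not overlap and were higher. Littermate_abx was below CX in every library, by -1.05 (SE 0.29), a mean 2.20-fold lower, where 29.1% of genes had libraries that did not overlap and were lower. That value ranged from -1.54 without CX 1 to -0.55 without CX 3. IL10R_abx and IL10R_P19 overlapped, with a difference of 0.49 (SE 0.22). The difference between IL10R_abx and littermate_abx exceeded the one between IL10R and CX by 1.88 (SE 0.36) on the log2 scale, and by 1.38 to 2.37 when single libraries were left out. These estimates share libraries and, like all values of Gbp2b in this table, are descriptions.

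The sorted cells differed between treated and untreated mice in other ways, and these values stand beside the ones above. All 8 epithelial markers were listed, and their summed share of the values was 0.845% to 1.25% in the untreated groups of the rescue table, 0.167% to 0.299% in IL10R_abx and 0.147% to 0.237% in littermate_abx. The 8 listed macrophage markers made up 1.62% to 1.63% in CX, 0.700% to 0.975% in IL10R, 0.914% to 1.38% in IL10R_P19, 1.91% to 2.51% in IL10R_abx and 2.21% to 2.47% in littermate_abx. The part of these shares in the differences between treated and untreated groups was not tested. Within the antibiotic groups the summed ranges overlapped for both lists, and none of these markers was among the 0.0302% of genes called. Klrk1 and Thy1, the 2 listed T and NK markers, summed to 0.00134% to 0.00262% in IL10R_abx and 0.000716% to 0.00121% in littermate_abx, without overlap. Ccr7, a dendritic cell marker, was at 18.3 to 21.8 normalised reads in IL10R_abx and 10.5 to 13.5 in littermate_abx. These genes lay below the filter on low values. Sums of the B and plasma, neutrophil, monocyte, and endothelial and stromal markers overlapped. All 8 epithelial estimates were above 0 in IL10R_abx against littermate_abx, with a median of 0.45 on the log2 scale. Krt20, a colonocyte keratin, was at 69.5 to 97.8 normalised reads in IL10R_abx and 22.1 to 50.6 in littermate_abx (1.21, SE 0.28; adjusted p 0.164 in limma). Cx3cr1, a chemokine receptor of gut macrophages, was at 261 to 715 in IL10R_abx and 949 to 1082 in littermate_abx (-1.23, SE 0.33; adjusted p 0.167 in limma). Neither gene overlapped between the groups. Of the macrophage markers, Csf1r too was lower without overlap, while Adgre1 was higher without overlap, at 1702 to 1846 against 1294 to 1648. Among the 8 macrophage estimates 4 were above 0 and 4 below, with a median of -0.02. Of all tested genes 4.82% did not overlap and were higher in IL10R_abx. The part of these markers in the Gbp2b difference was not tested. In bulk samples, fewer cells of a type and less RNA per cell cannot be told apart.

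The other guanylate-binding proteins lay higher in IL10R_abx than in littermate_abx too, by smaller estimates. Of the 11 on the list, 7 were listed in each table: Gbp2, Gbp3, Gbp5 and Gbp7 from the cluster on chromosome 3, and Gbp4, Gbp8 and Gbp9 from chromosome 5. In each of the 7, every IL10R_abx library exceeded every littermate_abx library, while 4.82% of all tested genes did so. None of the 6 that passed the filter on low values was called, at adjusted p-values in limma of 0.164 to 0.374. Without IL10R_abx_497 1 was called, in a fit that called many more of all genes, as given above. Their median log2 difference was 1.03, beside 0.03 for all genes.

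Gbp2, which attacks bacterial and parasite vacuoles, held 298, 521, 400 and 217 normalised reads in IL10R_abx and 165, 171 and 162 in littermate_abx. Its log2 difference was 1.03 (SE 0.48), with an adjusted p of 0.319 in limma. Gbp8 held 285, 333, 205 and 250 against 108, 122 and 126, a difference of 1.15 (SE 0.28; adjusted p 0.164 in limma). The largest estimate among the relatives was that of Gbp4, at 1.38 (SE 0.45; adjusted p 0.202 in limma). Thus the estimate for Gbp2b, the gene picked from this contrast, is the largest of the family here, which its choice favours.

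**Figure D2:**
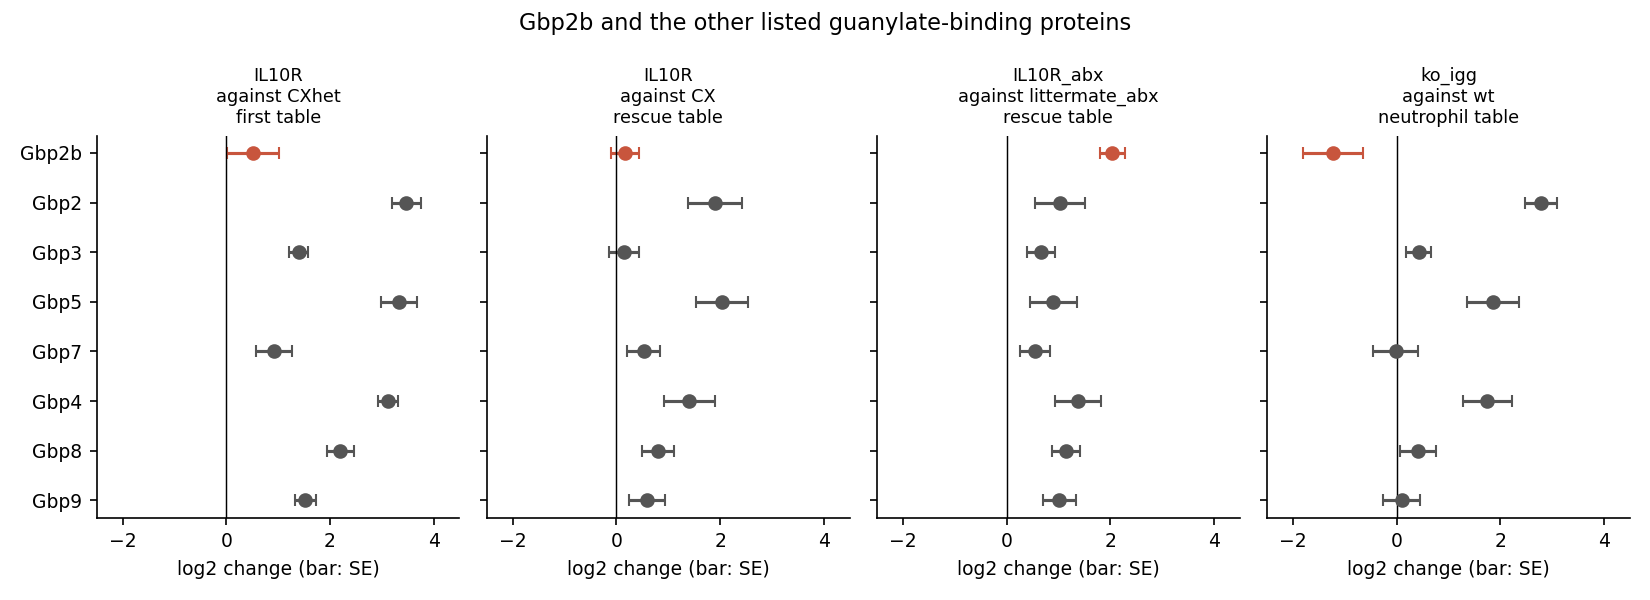
Log2 change (horizontal axis; points are estimates, bars SE) of Gbp2b in red and 7 relatives in grey in 4 comparisons, the first 5 rows from chromosome 3 and the last 3 from chromosome 5; Gbp5 in the rescue table and Gbp9 in the neutrophil table come from the fit without a filter. Gbp2b has the highest estimate under antibiotics, at 2.04, and the lowest against wt in the neutrophil table, at -1.22.

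In the first table, where Gbp2b can be tested, 6 of 7 relatives rose and Gbp2b did not pass the test. The IL10R libraries 1, 2 and 3 held 403, 82.9 and 288 normalised reads of Gbp2b, from 305, 64 and 245 reads, and the CXhet libraries 171, 163 and 117. The library labelled IL10R 2 was the lowest of all 6, and the other two IL10R libraries were the highest. Means were 258 ± 162 (SD, n = 3) and 150 ± 29.3 (SD, n = 3), 1.72-fold apart. The log2 difference was 0.52 (SE 0.50), with an adjusted p of 0.552 in limma. Without IL10R 2 it was 1.19 (SE 0.24), with an adjusted p of 0.0216, past the threshold.

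Of the 7 relatives 6 rose in IL10R against CXhet, where 8.69% of all genes were called and 4.57% were called higher. Their median log2 change was 2.20, against 0.00 for all genes. Gbp2 rose from 115 ± 42.7 (SD, n = 3) to 1242 ± 175 (SD, n = 3) normalised reads, by 3.47 (SE 0.28; adjusted p 4.0e-04 in limma). Gbp5, a promoter of inflammasome activation, rose by 3.33 (SE 0.35; adjusted p 0.00122 in limma), and Gbp4 rose by 3.12 (SE 0.18; adjusted p 1.9e-04 in limma). Gbp7 was at 0.92 (SE 0.34; adjusted p 0.134 in limma). Without IL10R 2 all 7 passed, in a fit whose share of all genes called is not given here. In this library, whose Il10ra level lies beside the controls, Gbp2 was at 1381 normalised reads, the highest of the 6, while Gbp2b was at its lowest.

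The neutrophil table gave the opposite direction for Gbp2b. The ko_igg libraries 14, 16 and 18 held 33.9, 115 and 71.7 normalised reads, and the wt libraries 1 to 4 held 223, 125, 144 and 142. All 3 ko_igg libraries lay below all 4 wt libraries, as did those of 11.5% of the tested genes. Means were 73.6 ± 40.8 (SD, n = 3) and 158 ± 44.1 (SD, n = 4), 2.15-fold apart. The log2 difference was -1.22 (SE 0.58), with an adjusted p of 0.199 in limma, so it did not pass the test. It stayed between -1.63 and -0.76 when single libraries were left out.

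With the anti-Ly6g titles, Gbp2b was spread widely. The ko_ly6g libraries 5, 6 and 7 held 35.2, 151 and 226 normalised reads, with a mean of 137 ± 96.0 (SD, n = 3), and overlapped both other groups. The difference from ko_igg was 0.69 (SE 0.62; adjusted p 0.9998 in limma), in a comparison where 0% of genes were called by limma, 0 by edgeR, and 127 had an unadjusted p under 0.05. This difference was 0.16 without ko_ly6g 7, 1.48 without ko_ly6g 5 and 1.39 in edgeR. The difference from wt was -0.53 (SE 0.58; adjusted p 0.640 in limma), and it was 0.26 without ko_ly6g 5.

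Summed markers of other cell types differed from the controls without overlap in some of these groups and overlapped the controls in others. The sums of B and plasma markers and of endothelial and stromal markers overlapped those of the controls throughout. The 2 listed T and NK markers of 9 were Klrk1 and Thy1 in the first table and Gzmb and Thy1 in the neutrophil table. They summed to 0.000793% to 0.00109% of the values in CXhet and 0.00466% to 0.00764% in IL10R of the first table. In the neutrophil table their sums were 0.000840% to 0.00107% in wt, 0.00540% to 0.00716% in ko_igg and 0.00264% to 0.00480% in ko_ly6g. The 5 listed neutrophil markers of 6, without Cxcr2 and with Retnlg at 0 in all CXhet libraries, summed to 0.00457% to 0.00686% in CXhet and 0.0196% to 0.0278% in IL10R. In the neutrophil table they summed to 0.00460% to 0.00885% in wt, 0.00820% to 0.0380% in ko_igg and 0.00510% to 0.0497% in ko_ly6g. Thy1, a T cell marker, was at 83.9 to 144 normalised reads in ko_igg and 19.9 to 29.8 in wt. The monocyte markers Ccr2 and Ly6c2 summed to 0.00311% to 0.00528% in CXhet and 0.00937% to 0.0387% in IL10R, and to 0.00272% to 0.00836% in wt, 0.00377% to 0.00636% in ko_igg and 0.00308% to 0.00503% in ko_ly6g.

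Among single markers, Ccr2, a monocyte chemokine receptor, rose by 2.03 (SE 0.35; adjusted p 0.0104 in limma) in IL10R against CXhet. Ccr7, the 1 listed dendritic cell marker of 4, was at 0 to 12.5 normalised reads in CXhet and 90.6 to 232 in IL10R (adjusted p 0.0107 in limma). In ko_igg against wt, Ly6c2, a monocyte marker, rose by 1.59 (SE 0.25; adjusted p 0.00383 in limma), and Cx3cr1 fell by 3.96 (SE 0.75; adjusted p 0.0106 in limma). All 8 listed macrophage markers had estimates below 0 in that comparison, with a median of -0.66 beside 0.06 for all genes. Of these 8, 1 was called, beside 9.19% of all genes. Their summed share was 0.702% to 1.02% in ko_igg and 0.928% to 2.70% in wt. Of the 8 epithelial estimates 6 were above 0 and 2 below, and 0 were called. Ccr2 lay the other way from Ly6c2 there, at 6.45 to 14.8 normalised reads in ko_igg and 33.5 to 211 in wt. Its estimate was -2.56 (SE 0.74), with an adjusted p of 0.054 in limma without a filter. The part of these markers in the differences of Gbp2b and its relatives was not tested.

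Relatives did not follow Gbp2b in ko_igg against wt. Of 6 tested, 3 rose and none fell, where 9.19% of all genes were called and 5.73% were called higher. Gbp2 rose from 128 ± 53.8 (SD, n = 4) to 829.3 ± 111 (SD, n = 3) normalised reads, by 2.78 (SE 0.31; adjusted p 6.3e-04 in limma). Gbp5 rose by 1.86 (SE 0.50; adjusted p 0.0441 in limma) and Gbp4 by 1.75 (SE 0.47; adjusted p 0.0451 in limma). Gbp7 was at -0.02 (SE 0.44; adjusted p 0.986 in limma). The wt libraries were not alike: wt 1 was the highest of its group for Gbp2b, for all 7 relatives and for Il10ra. Leaving it out kept the count of relatives called at 3, in a fit whose share of all genes called is not given here.

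In the rescue table, IL10R against CX called 1 of the 6 tested relatives, Gbp2, which rose by 1.90 (SE 0.52; adjusted p 0.0304 in limma), where 3.87% of all genes were called higher. Gbp5, below the filter, rose by 2.04 (SE 0.50; adjusted p 0.0196 in limma) in the fit without a filter. The 5 IL10R libraries differed about Gbp2, at 393, 492, 261, 113 and 93.3 normalised reads, while their Gbp2b stayed between 126 and 174. IL10R_P19 against IL10R called 0 of the 6 relatives, and 5 of the 6 estimates were below 0, with a median of -0.22. IL10R_abx against IL10R called 3 of 6 higher, where 30.6% of all genes were called higher: Gbp3 rose by 0.75 (SE 0.23), Gbp7 by 0.89 (SE 0.25) and Gbp9 by 1.04 (SE 0.28), with adjusted p-values in limma of 0.00883, 0.00587 and 0.00339. None of the 6 relatives showed a difference between the antibiotic and untreated contrasts that passed limma, at adjusted p-values of 0.701 to 0.993. The share of all genes that passed there is not given here.

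Gbp2b relative to Gbp2 within the same library shows how far the neighbours in the gene cluster parted. Neither value is per length, so only changes of this ratio between groups are read. In the first table it was 1.08 to 1.58 in CXhet and 0.386, 0.0600 and 0.222 in IL10R. In the neutrophil table it was 0.931 to 2.04 in wt, 0.0483 to 0.130 in ko_igg and 0.0837 to 0.355 in ko_ly6g. The groups titled IL10R or ko did not overlap the controls in either table, with or without IL10R 2.

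Exact two-sided permutation tests of the log2 ratio gave a difference of -2.97 with p = 0.1 for IL10R against CXhet, the smallest p that 3 against 3 libraries allow. For ko_igg against wt the difference was -4.03 and for ko_ly6g against wt -2.72, each with an exact p of 0.0571, the smallest that 3 against 4 allow. Adjusted over the 3 tests, these exact p-values were 0.1, 0.0857 and 0.0857, so none could pass the threshold.

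In the rescue table the order was the same for IL10R against CX and the other way under antibiotics, and it is described only. The ratio was 1.85 and 2.65 in CX, 0.354 to 1.45 in IL10R and 1.15 to 3.07 in IL10R_P19. Under antibiotics it was 0.344 to 0.413 in littermate_abx and 0.466 to 1.02 in IL10R_abx, so IL10R_abx lay above littermate_abx, whereas IL10R lay below CX and IL10R_P19 overlapped CX.

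**Figure D3:**
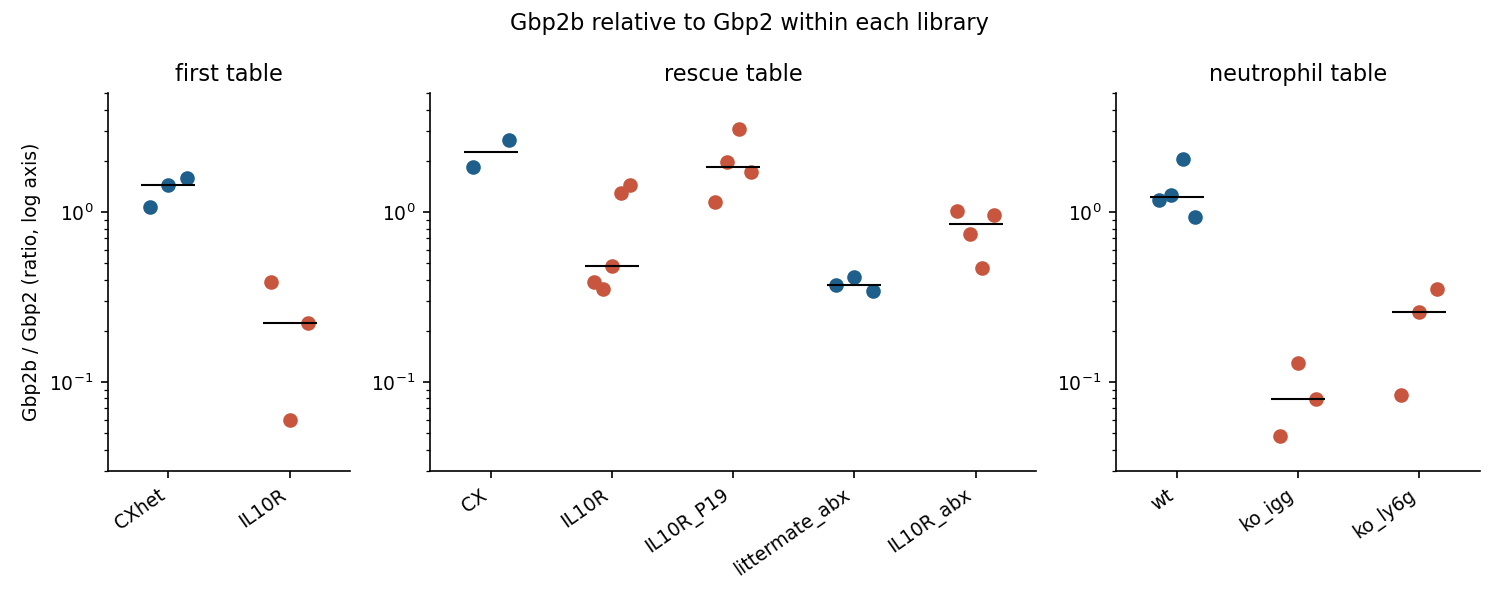
Ratio of Gbp2b to Gbp2 normalised reads in each library (vertical axis, log scale); points are libraries, lines group medians, blue marks control groups and red the groups titled IL10R or ko. The ko_igg libraries, at 0.0483 to 0.130, lie below the wt libraries, at 0.931 to 2.04, while IL10R_abx, at 0.466 to 1.02, lies above littermate_abx, at 0.344 to 0.413.

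Reads that fit both genes could move between them in counting. Of the 2774 windows of 50 bases in the GENCODE M21 transcript of Gbp2b, which is 2823 bases long, 51 or 1.84% occurred in a transcript of another gene, each time of Gbp2. In its last 1000 bases 0 of 951 windows did. The authors' handling of such reads is not stated in the labels.

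The immunity-related GTPases, such as Igtp, Irgm1, Irgm2 and Iigp1, are induced by interferon gamma and act on the same vacuoles as the guanylate-binding proteins. Of 7 tested, 6 rose in IL10R against CXhet, where 4.57% of all genes were called higher. In IL10R against CX 3 of 7 rose, beside 3.87% of all genes, and in ko_igg against wt 4 of 7, beside 5.73%, with none lower. Under antibiotics 0 of 7 were called between IL10R_abx and littermate_abx, beside 0.0302% of all genes, with a median of 0.98 beside 0.03 for all genes. Igtp, for example, was at 1.37 (SE 0.58; adjusted p 0.285 in limma) there and rose by 2.45 (SE 0.22; adjusted p 7.1e-04 in limma) in the first table.

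Genes of the interferon gamma pathway were called less evenly. In IL10R against CXhet 6 of 13 rose, beside 4.57% of all genes, among them Socs1, an inhibitor of cytokine signalling, by 2.49 (SE 0.32; adjusted p 0.0033 in limma). In ko_igg against wt 3 of 12 rose, beside 5.73% of all genes: Irf1, Nlrc5 and Socs1, and Ifng itself, the gene for interferon gamma and below the filter, was at 16.9 to 64.5 normalised reads in ko_igg and 0 to 2.10 in wt (adjusted p 0.0093 in limma without a filter). In IL10R_abx against littermate_abx 0 of 13 were called, beside 0.0302% of all genes, with a median of 0.03, and Irf1, a transcription factor of the response, was at 0.03 (SE 0.30; adjusted p 0.967 in limma).

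Of interferon gamma targets such as the chemokine Cxcl9 and the peptide transporter Tap1, 11 of 12 rose in IL10R against CXhet, 4 of 10 in IL10R against CX and 8 of 12 in ko_igg against wt. Of all genes 4.57%, 3.87% and 5.73% were called higher in these comparisons. Between IL10R_abx and littermate_abx 0 of 10 were called, beside 0.0302% of all genes, with a median of 0.70, and Tap1 was at 1.13 (SE 0.34; adjusted p 0.193 in limma). Genes that mark the response to type I interferon gave 8 of 10 higher in the first table, 0 of 8 in IL10R against CX, 0 of 8 under antibiotics and 2 of 7 in ko_igg against wt, beside the same shares of all genes. Inflammasome genes, which act after guanylate-binding proteins have exposed bacterial products, gave 1 of 7 higher, 0 of 8, 0 of 8 and 1 of 7 in the same order. In IL10R_abx against IL10R, the immunity-related GTPases gave 0 of 7, the pathway genes 4 higher and 1 lower of 13, and the interferon gamma targets 1 higher and 2 lower of 10. The other lists gave 2 higher of 8 for type I interferon and 2 higher and 3 lower of 8 for inflammasomes there. Of all genes 30.6% were called higher and 27.3% lower in that comparison, so a share such as 4 of 13 is near the background. Without IL10R 2, IL10R against CXhet called higher 7 of 7 immunity-related GTPases, 5 of 13 pathway genes and 10 of 10 interferon gamma targets. It also called higher 5 of 8 type I interferon genes and 1 of 7 inflammasome genes. The share of all genes called in that fit is not given here, so these counts stand without a background.

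**Figure D4:**
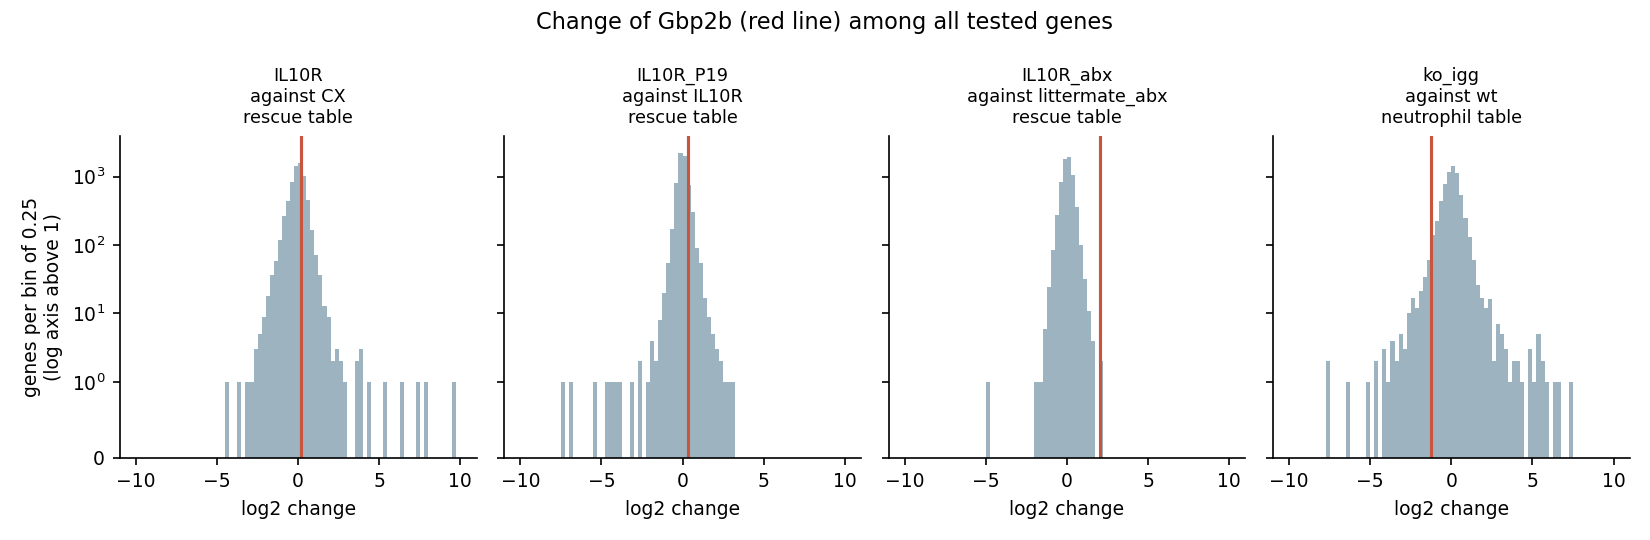
Number of tested genes (vertical axis, logarithmic above 1) in bins of 0.25 of the log2 change (horizontal axis) in 4 comparisons, with Gbp2b as a red line. Gbp2b lies at the upper edge of all genes under antibiotics, at 2.04, a place that its choice favours, inside the bulk in the untreated comparisons, at 0.16 and 0.34, and in the lower tail at -1.22 in the neutrophil table.

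The histograms of all changes place Gbp2b against its background. It ranked 2309th from the top in IL10R against CX and 867th in IL10R_P19 against IL10R, of 6612 genes each. It ranked 948th of 6766 in IL10R against CXhet, and 195th from the bottom of 6594 in ko_igg against wt.

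Genes beside Gbp2b on chromosome 3 were looked at in the order in which the reference lists them. Gbp5, Gbp7 and Gbp3 come before it and Gbp2 after it, framed by Pdlim5 and Rap1gds1 on one side and Gtf2b, Pkn2, Lmo4 and Hs2st1 on the other. In IL10R_abx against littermate_abx, where limma called 0.0302% of all genes, none of these 10 was called. The 6 outside the family lay between -0.26 (Pdlim5, SE 0.16) and 0.29 (Lmo4, SE 0.21) there. In IL10R against CXhet Lmo4 rose by 1.21 (SE 0.21; adjusted p 0.0105 in limma) and Pdlim5, Rap1gds1, Gtf2b, Pkn2 and Hs2st1 were not called.

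Over the 18 libraries of the rescue table, the genes whose log2 levels followed Gbp2b most closely were Slc25a11, with a Pearson r of 0.87, and Cpq, with 0.85, of 6321 ranked. Gbp8 came next with 0.76, then Irf2 with 0.76 and Plbd1 with 0.75. Rap1gap2, Mlycd, Glrx, Bccip and H2-K1 lay at 0.73 to 0.74. Among the most opposed were Cul3 with -0.75, B3gat3 with -0.74, and Eed and Far1 with -0.73. These libraries share 5 groups and 2 treatments, so the values describe the table and carry no p.

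The order was not kept between tables. Slc25a11 had an r of -0.79 over the 6 libraries of the first table and -0.34 over the 10 of the neutrophil table, and Cpq 0.44 and 0.13. In the first table the highest were Atf7 with 0.99 and Tmed10 with 0.98, followed by Lpl, Cadm1 and Srsf11. These are the extremes of 6469 genes over 6 libraries and carry no p. In the rescue table Atf7 had -0.44 and Tmed10 0.17. In the neutrophil table they were Tprkb and H2-M2 with 0.89 each, Rcor1, Wdr43 and Fam168a. H2-M2 had 0.90 in the first table and 0.21 in the rescue table.

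Among the relatives, Gbp7 had an r of 0.82 with Gbp2b in the first table, 0.26 in the rescue table and 0.55 in the neutrophil table. Gbp2 had 0.33, 0.31 and -0.35. Once group means were removed in the neutrophil table, all 7 relatives lay between 0.54 and 0.70, whereas the same measure ran from -0.07 for Gbp2 to 0.88 for Gbp7 in the first table and from 0.13 for Gbp5 to 0.58 for Gbp8 in the rescue table.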

How the data were processed

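The deposited values are signal values: reads per gene that the authors divided by 1 factor per library, read from the values themselves, since 100% of the low values in 32 libraries were whole multiples of 1 read within 0.02 read. For ko_igg 16 and wt 3 this could not be checked. Per the submitters' processing notes bcl2fastq, HISAT 0.1.6, HOMER and mm9 were used; the sources used here give neither annotation nor use of strand. Rows with no gene name (15399 and 15605 in the first and rescue tables, 0 in the neutrophil table) held no value and were left out.

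The planned test for normalised values was used: limma 3.58.1 in R 4.3.3, with trend and robust variances, on log2(value + pseudocount), which understates changes of low genes. Pseudocounts were 1.31, 0.997 and 0.982 in the first, rescue and neutrophil tables. Genes with a mean in the lower quartile were removed, leaving 6766, 6612 and 6594, and Gbp2b passed in each. All groups of a table shared 1 fit, p-values were adjusted by Benjamini-Hochberg over all genes, and those under 0.05 were called. Markers and relatives below the filter come from the fit without one. Tables were normalised separately and each comparison stays within 1 table.

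The alternatives were no filter, a pseudocount of 10, scaling to totals, a fit of the compared groups only, leaving out libraries, a replicate block and edgeR 4.0.16 (quasi-likelihood, TMM) on recovered reads, which called 625 genes in IL10R against CXhet, 854 in IL10R against CX, 287 in IL10R_P19 against IL10R, 2 in IL10R_abx against littermate_abx, 3813 in IL10R_abx against IL10R, 56 in ko_igg against wt and 0 in ko_ly6g against ko_igg. The member and the gene lists were chosen with earlier results of these data known. Named genes are Gbp2b, Il10ra, members of those lists, the 10 or 5 most correlated genes per table, and the listed neighbours; some genes this rule names are left out of the text. The mm9 build of the files differs from that of the reference, so neighbours are given in order only. Promoters come from RefSeq (Python 3.11.15 search).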

Additional observations from a re-analysis of the deposited data

Results flagged for a closer look

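Gbp2b moved in opposite directions in 2 contrasts of IL-10 receptor deficiency with controls: every IL10R_abx library lay above every littermate_abx library, by 2.04 on the log2 scale, and every ko_igg library lay below every wt library, by -1.22. The first is the contrast from which Gbp2b was chosen, so nothing is read from its direction or size. The second did not pass the test (adjusted p 0.199 in limma), and 11.5% of the tested genes did not overlap and were lower there. Its groups also differ in titled antibody, since the wt titles name none. The difference between these contrasts was not tested, since they come from separately normalised tables.

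In 5 of the 32 sets checked for Gbp2b and its relatives, each the 4 or 5 libraries of 1 group, 1 library lay far from the others: its gap to the nearest, as a share of the whole range, exceeded Dixon's 95% critical value. Gbp3 was at 384 normalised reads, Gbp5 at 80.4 and Gbp7 at 839 in wt 1. Gbp4 was at 127 in IL10R_P19_107, and Gbp9 at 134 in IL10R_abx_161. By the level of that test chance flags about 1 in 20 sets, and no set of Gbp2b itself was among them.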

How the results depend on the processing

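Gbp2b kept its direction in every comparison, and its side of the threshold in the first and neutrophil tables, where it was tested, without a filter, with a pseudocount of 10, scaled to totals, fitted on the compared groups only and in edgeR. Leaving out libraries moved it from 0.063 to 1.19 in IL10R against CXhet, -0.33 to 0.66 in IL10R against CX, 0.013 to 1.00 in IL10R_P19 against CX, -1.54 to -0.55 in littermate_abx against CX, 1.38 to 2.37 for the difference of differences and -1.07 to 0.26 in ko_ly6g against wt, the last reversed only without ko_ly6g 5; the cause was not tested. Counts of called genes ranged from 201 to 592 (588 with all libraries) in IL10R against CXhet, 20 to 746 (655) in IL10R against CX, 17 to 380 in IL10R_P19 against IL10R, 2 to 385 (2) in IL10R_abx against littermate_abx and 205 to 1046 (606) in ko_igg against wt. With the compared groups only, IL10R against CX called 1080. In edgeR IL10R_P19 against IL10R called 287, and ko_igg against wt 56 with 2 fewer libraries. Of the relatives, 1 was called in IL10R_abx against littermate_abx without IL10R_abx_497, where 385 genes in all were called, an alternative chosen after seeing the data. Scaling to totals shifted the median of all genes to -0.18 in IL10R_abx against IL10R and -0.14 in IL10R_abx against IL10R_P19, where Gbp2b was at 0.63 and 0.31; the first then called 1522 higher and 2419 lower (2020 and 1803 in the main scaling), and IL10R against CX 388 and 331 (256 and 399).

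With the replicate number as a block, the first table gave 0.52 (SE 0.45, adjusted p 0.499 in limma) for Gbp2b and 808 calls. Deviations of same-numbered libraries correlated at -0.058, 0.15 and 0.35, so the numbers were not taken as pairs. Gbp2b rests on 42 to 462 reads per library.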
